A study of Rattus norvegicus with 8 samples.

Results

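The Gadd45 and p53 pathway genes described here are the 3 growth arrest and DNA damage-inducible genes Gadd45a, Gadd45b and Gadd45g, together with Cdkn1a, Mdm2, Ccng1, Sesn1, Plk2 and Plk3, most of which are textbook targets of the tumor suppressor p53. The 9 genes were found by their gene name on the array, where they occupied 22 of 43379 non-control spots and 13 of 41012 probes, among 35199 gene names. They were chosen by name when their log2 differences between these same groups were already known, so their values between the groups are given as a description, without a test.

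Total RNA came from the hippocampal dentate gyrus (DG) of 8 adult female Sprague-Dawley rats of 150 to 200 g. All 8 were ovariectomized and underwent status epilepticus (SE) induced by kainic acid, so both groups lack ovaries and both have had seizures. The 4 oil-injected rats (COS) received vehicle. The 4 estradiol-replaced rats (CES) received 4 doses of 2 µg of estradiol benzoate, called estradiol here, 1 every 24 h. In the sample records, kainic acid was given at 16 mg/kg, pentobarbital stopped the seizures after 5 h, and estradiol was given 2 times before SE and 2 times after it. The methods of the study give a lower dose of kainic acid, all estradiol doses before SE, diazepam in place of pentobarbital, and collection times that differ between paragraphs, and the files do not settle which holds. Rats without SE were not analysed here. Each of 4 arrays on a single slide held 2 rats of 1 group, with replicates 1 and 3 in Cy3 and replicates 2 and 4 in Cy5, so the array is nested in the group and can enter only as a random block.

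Gadd45 proteins are small stress-induced proteins that bind the mitogen-activated kinase kinase kinase Map3k4 and the Cdk1 and cyclin B1 complex, and they take part in active DNA demethylation. In the DG, Gadd45b is known as an activity-induced gene of mature neurons. p53 is a transcription factor that DNA damage and excitotoxic stress stabilize. Its targets arrest the cell cycle (Cdkn1a), restrain p53 itself (Mdm2, Ccng1), limit oxidative stress and growth signaling (Sesn1) or control stress and synaptic signaling (the polo-like kinases Plk2 and Plk3), and several of them are also induced by neuronal activity without DNA damage.

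To show the regulatory sequence of the genes with the largest differences, the 250 bases before the transcription start of all 3 Gadd45 genes, of Cdkn1a and of Sesn1, the only gene with a higher level in CES, are printed from RefSeq on build GRCr8, 5′ to 3′ on the strand of the gene. Capitals mark the cyclic AMP response element core TGACG, the E-box CACGTG and the p53 decamer, a 10-base consensus of which p53 binds pairs, which were searched on both strands, so that CGTCA is the core read on the opposite strand.
Gadd45a, chr4:97486800-97487049, minus strand: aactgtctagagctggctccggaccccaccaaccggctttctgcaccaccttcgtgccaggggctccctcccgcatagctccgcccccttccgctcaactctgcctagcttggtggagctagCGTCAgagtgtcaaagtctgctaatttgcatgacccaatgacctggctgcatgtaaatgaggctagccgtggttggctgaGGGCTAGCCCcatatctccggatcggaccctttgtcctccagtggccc
Gadd45b, chr7:9430719-9430968, minus strand: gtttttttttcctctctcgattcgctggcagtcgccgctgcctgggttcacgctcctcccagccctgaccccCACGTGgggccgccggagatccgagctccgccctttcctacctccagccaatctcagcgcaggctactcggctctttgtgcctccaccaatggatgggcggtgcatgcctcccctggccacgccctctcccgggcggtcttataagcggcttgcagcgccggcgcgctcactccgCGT
Gadd45g, chr17:13530352-13530601, minus strand: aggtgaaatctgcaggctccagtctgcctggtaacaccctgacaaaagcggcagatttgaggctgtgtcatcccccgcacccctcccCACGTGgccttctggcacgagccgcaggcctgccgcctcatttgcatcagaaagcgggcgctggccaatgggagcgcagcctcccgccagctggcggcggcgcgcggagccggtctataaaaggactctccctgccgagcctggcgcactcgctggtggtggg
Cdkn1a, chr20:7150682-7150931, plus strand: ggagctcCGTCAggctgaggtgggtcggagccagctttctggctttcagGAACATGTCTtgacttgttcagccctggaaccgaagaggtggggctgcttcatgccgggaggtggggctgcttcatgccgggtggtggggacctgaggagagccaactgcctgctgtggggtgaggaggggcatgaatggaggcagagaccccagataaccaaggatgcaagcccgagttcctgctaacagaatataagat
Sesn1, chr20:46948469-46948718, plus strand: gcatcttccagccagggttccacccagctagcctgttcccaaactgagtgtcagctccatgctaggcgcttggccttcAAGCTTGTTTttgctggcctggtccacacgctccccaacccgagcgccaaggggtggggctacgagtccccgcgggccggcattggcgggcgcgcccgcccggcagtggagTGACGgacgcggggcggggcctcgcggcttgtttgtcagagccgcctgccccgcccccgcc
All 9 genes had an entry, and the search covered the 250 bases before and 50 after the start of 33469 genes. None of the marked motifs was shared by all 3 Gadd45 genes and Cdkn1a, and the Gadd45g window held neither the core nor a p53 decamer. The core TGACG was in 7 of the 9 windows and in 21.2% of all windows. The capitals that end the Gadd45b sequence are the first bases of a core that runs past the start. The whole element TGACGTCA, which contains the core, was in the Plk2 window alone, from base −66 to base −59, and in 1.8% of all windows. The E-box was in the windows of Gadd45b and Gadd45g, 178 and 163 bases before the start, and in 6.4% of all windows. A p53 decamer was in the windows of Gadd45a, Cdkn1a, Ccng1 and Sesn1 and in 8.0% of all windows. In Cdkn1a it read GAACATGTCT and began 201 bases before the start. No member window held 2 adjacent decamers that both matched exactly, the AP-1 site TGANTCA or the CArG box that serum response factor binds. These were in 0.06%, 7.3% and 1.6% of all windows. The search allowed no mismatch, so near matches were not counted. An example is tgacttgttc, which directly follows GAACATGTCT in Cdkn1a and departs from the consensus at its opening base. Of general promoter motifs, the CCAAT box was in 7 of the 9 windows and in 37.5% of all windows, and the TATA box TATAAA was in the Gadd45g window alone and in 14.2% of all windows. A match is only a description of these letters.

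Levels are the log2 of the background-subtracted intensity over the median that all valid same-label spots of that array have, so a level of 0 is that median. Of the 9 genes, 8 had a spot valid in all 8 rats without an outlier mark of the scanner software, and all 8 were well above background in every rat. Valid spots ran from 74.6% to 88.9% of the non-control spots in COS and from 70.7% to 81.5% in CES. The median difference of all 20787 quantified genes, CES minus COS, was −0.25 on the log2 scale. The difference of each member is therefore also given relative to it. In whole tissue, a smaller number of expressing cells and less RNA per cell cannot be told apart. Each sample is 1 rat, and errors describe the spread between these rats.

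All 3 Gadd45 genes and Cdkn1a had far lower levels in CES than in COS, with non-overlapping groups. Gadd45g, Gadd45a, Cdkn1a and Gadd45b were 21.4-, 9.70-, 8.18- and 8.16-fold lower, respectively. Mdm2 was 2.03-fold lower without overlap, and Plk3, Ccng1 and Plk2 were lower with overlapping groups. Sesn1 alone was higher in CES, at 155.0% of its COS level. Across the 8 quantified genes the median difference was −2.05, and −1.80 relative to all genes. That median falls between a set of 4 genes near −3 or lower and the smaller differences of the others, and with Plk2 added from its marked spot the median of all 9 was −0.82 relative to all genes. The limma fit across all 20787 genes, in which dye is a fixed and array a random effect, called 6 of the 8 lower in CES, where it called 28.6% of all genes lower, and 1 higher, where it called 5.74% higher. In either direction these were 7 of 8 members, against 34.3% of all genes. The groups did not overlap for 5 members, all lower, against 19.7% of all genes lower without overlap. Because the same contrast chose the genes, nothing is read from these counts.

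**Figure D1:**
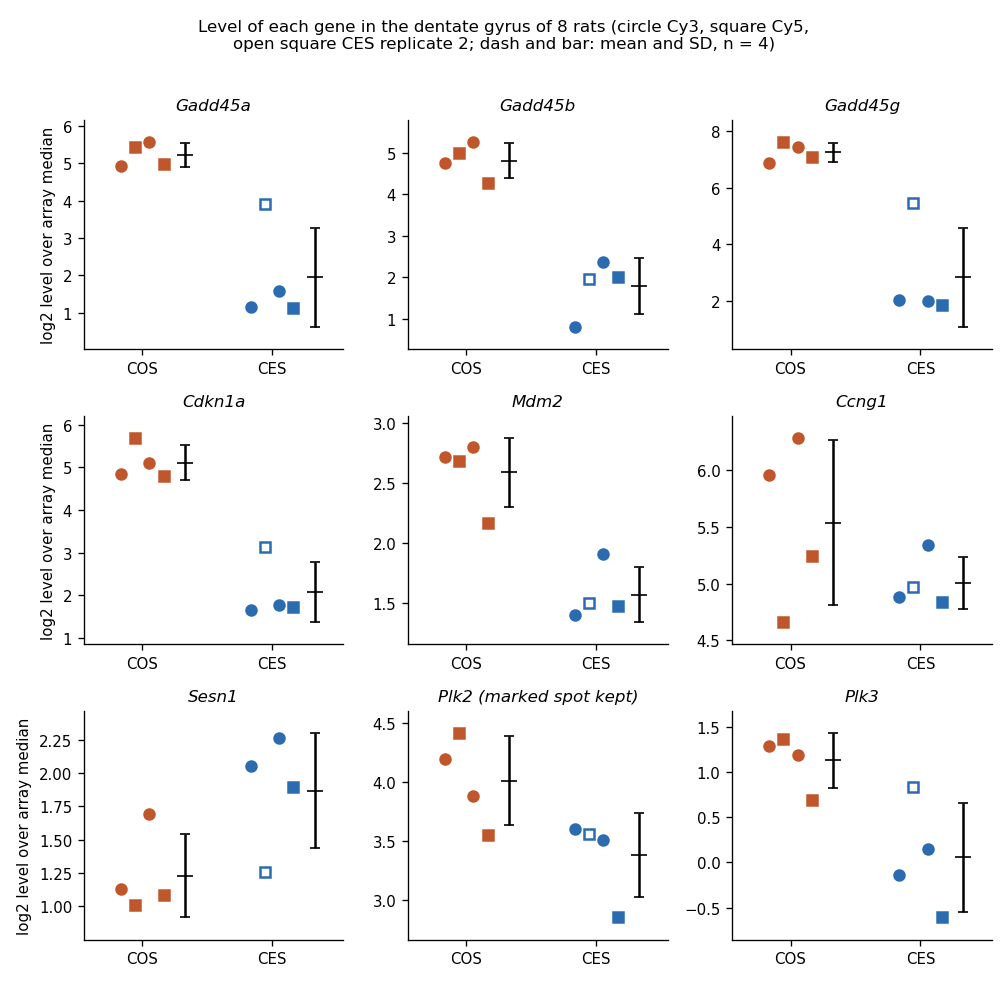
Log2 level of each of the 9 genes in each rat, COS in orange and CES in blue, with Cy3 rats as circles, Cy5 rats as squares and CES replicate 2 as an open square. The dash and bar give the mean and SD of 4 rats. The groups are separate for Gadd45a, Gadd45b, Gadd45g, Cdkn1a and Mdm2, and CES replicate 2 lies apart from the other CES rats for Gadd45a, Gadd45g and Cdkn1a.

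Gadd45g, a stress sensor that inhibits the Cdk1 and cyclin B1 kinase, had the largest difference of the members and ranked 17 from the lowest among the 20787 differences. Its probe lies on chromosome 17 of rn4, at chr17:19231059-19231118. The log2 levels were 6.87, 7.59, 7.45 and 7.07 in COS replicates 1 to 4 and 2.01, 5.45, 1.98 and 1.86 in CES replicates 1 to 4. Every COS rat was above every CES rat, and CES replicate 2 lay between the COS rats and the other CES rats. COS averaged 7.25 ± 0.34 (SD, n = 4) and CES 2.83 ± 1.75 (SD, n = 4). The difference was −4.42 with a standard error of 0.64, and −4.16 after subtraction of the median of all genes. The SD in CES was larger than that of 99.5% of all genes, while in COS 39.0% of genes had a smaller SD.

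Gadd45a is the family member that p53 induces directly after DNA damage. Its probe lies on chromosome 4, at chr4:96650454-96650513. In log2 units its levels were 4.94, 5.43, 5.56 and 4.98 in COS replicates 1 to 4 and 1.16, 3.92, 1.58 and 1.14 in CES replicates 1 to 4. The groups did not overlap, with 1.02 between the lowest COS and the highest CES rat, and CES replicate 2 again stood above the other 3 CES rats. The difference was −3.28 with a standard error of 0.51, or −3.02 relative to all genes, from 5.23 ± 0.31 (SD, n = 4) in COS to 1.95 ± 1.33 (SD, n = 4) in CES.

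Gadd45b, the activity-induced member in neurons, is measured by a probe on chromosome 7 that the files place at chr7:10289049-10289076, shorter than the 60 bases of the probe. Levels on the log2 scale were 4.74, 4.98, 5.25 and 4.27 in COS replicates 1 to 4 and 0.80, 1.96, 2.37 and 2.01 in CES replicates 1 to 4. Here the lowest CES rat was replicate 1, and replicate 2 lay inside the range of the other CES rats, in contrast to the other Gadd45 genes. The gap between the groups was 1.90, the widest of the 8 quantified members. The difference was −3.03 with a standard error of 0.34, or −2.77 relative to all genes, from 4.81 ± 0.41 (SD, n = 4) in COS to 1.78 ± 0.68 (SD, n = 4) in CES.

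Cdkn1a encodes p21, the inhibitor of cyclin-dependent kinases through which p53 halts the cell cycle. The array carries 10 spots of a probe at chr20:7386596-7386655, of which 8 without an outlier mark were averaged. The log2 of that average was 4.84, 5.69, 5.09 and 4.79 in COS replicates 1 to 4. It was 1.66, 3.12, 1.77 and 1.74 in CES replicates 1 to 4. The groups did not overlap, and CES replicates 1, 3 and 4 lay within a narrow band below CES replicate 2. The 8 spots of a rat had an SD of 0.08 to 0.21, which is repeat error within an array and not the spread between rats. The difference was −3.03 with a standard error of 0.31, or −2.78 relative to all genes, from 5.10 ± 0.41 (SD, n = 4) to 2.07 ± 0.70 (SD, n = 4). A second probe, at chr20:7385506-7385565, was valid in 5 rats and well above background in 3, and its difference without a filter was −2.42.

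Mdm2, the ubiquitin ligase that targets p53 for degradation and is itself induced by p53, had a smaller difference. It is measured by 2 probes on chromosome 7, at chr7:56996880-56996939 and at chr7:57005501-57005835, and the second spans more of the genome than its 60 bases and so crosses an intron. The log2 levels were 2.72, 2.69, 2.80 and 2.17 in COS replicates 1 to 4 and 1.40, 1.51, 1.91 and 1.48 in CES replicates 1 to 4. The groups were separate by only 0.25, between COS replicate 4 and CES replicate 3. The difference was −1.02 with a standard error of 0.19, or −0.76 relative to all genes. The probes gave −0.995 and −1.27 on their own, and the intron-crossing probe was well above background in 6 of 8 rats.

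Ccng1, cyclin G1, which brings a phosphatase to Mdm2, did not separate the groups. The log2 levels were 5.96, 4.66, 6.28 and 5.24 in COS replicates 1 to 4 and 4.88, 4.97, 5.34 and 4.83 in CES replicates 1 to 4. COS replicate 2 was below every CES rat, and the other COS rats overlapped with or exceeded them. The COS rats carrying Cy3 were both above the COS rats carrying Cy5. The difference was −0.53 with a standard error of 0.24, or −0.27 relative to all genes. It was −1.01 within Cy3 and −0.05 within Cy5. The wide COS spread came from the probe at chr10:25778638-25778912, with COS levels from 3.38 to 6.34 there and from 5.33 to 6.22 for the probe at chr10:25776868-25776927.

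Sesn1, a sestrin that restrains growth signaling under stress, had higher levels in CES, opposite to the other members. Its probe, at chr20:45874629-45875784, crosses an intron. Log2 levels were 1.13, 1.01, 1.69 and 1.09 in COS replicates 1 to 4 and 2.05, 1.26, 2.26 and 1.90 in CES replicates 1 to 4. CES replicate 2 lay inside the COS range, below COS replicate 3, and the other CES rats were above all COS rats. The difference was 0.64 with a standard error of 0.20, or 0.89 relative to all genes. The rat with the highest CES levels of Gadd45a, Gadd45g and Cdkn1a was therefore the CES rat with the lowest level of Sesn1.

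Plk2 and Plk3 encode stress- and activity-induced polo-like kinases, and Plk2 is known to weaken overactive synapses. Their probes are similar in sequence, and over the 48 bases in which they overlap, 36 (75.0%) are identical. The probes are shown to make this likeness visible, with capitals for identical bases. Whether either binds transcript of the other gene was not tested.
Plk2, chr2:41805560-41805752: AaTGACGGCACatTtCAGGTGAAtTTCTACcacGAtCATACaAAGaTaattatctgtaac
Plk3, chr5:137444034-137444203: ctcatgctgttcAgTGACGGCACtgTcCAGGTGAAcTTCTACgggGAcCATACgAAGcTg
The scanner software marked the single Plk2 spot as an outlier in 3 rats, COS replicate 3 and CES replicates 3 and 4, so Plk2 has a value only where marked spots are kept. Its log2 levels were then 4.20, 4.42, 3.88 and 3.55 in COS replicates 1 to 4 and 3.60, 3.56, 3.51 and 2.85 in CES replicates 1 to 4. The groups overlapped narrowly, at COS replicate 4 and CES replicates 1 and 2. The difference was −0.63 with a standard error of 0.24, or −0.38 relative to all genes. For Plk3, a kinase that phosphorylates p53 under genotoxic stress, the log2 levels were 1.28, 1.36, 1.18 and 0.69 in COS replicates 1 to 4 and −0.14, 0.84, 0.14 and −0.61 in CES replicates 1 to 4. The groups overlapped at CES replicate 2 and COS replicate 4 alone. The difference was −1.07 with a standard error of 0.30, or −0.82 relative to all genes. The probe printed above gave −1.13 on its own, and the other Plk3 probe gave −0.56 and was well above background in 3 rats.

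**Figure D2:**
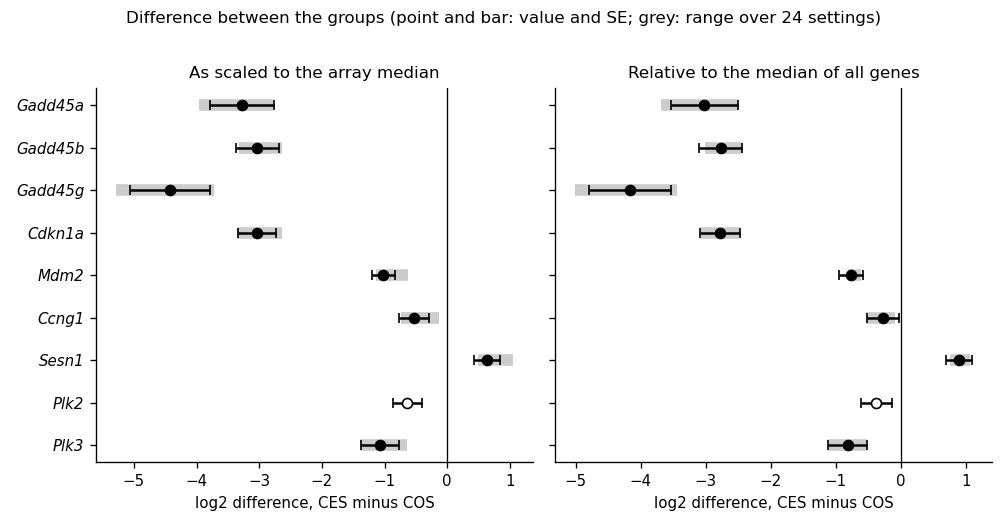
Log2 difference, CES minus COS, of the 9 genes with its standard error, as scaled to the array median (left) and with the median of all genes subtracted (right). Grey bars span the 24 settings of processing and left-out rats, and the open point is Plk2 with the marked spot kept. No grey bar crosses 0, and the bars of Gadd45a, Gadd45b, Gadd45g and Cdkn1a lie to the left of all others.

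The scaling moved all differences together. After loess within arrays and quantile normalization of average intensities between them (Aquantile), the median difference of all genes was 0.08 instead of −0.25, and 36.6% of the called genes were lower in CES instead of 83.3%. Of the 8 members, 5 were then called lower and 1 higher, against 8.77% and 15.2% of all genes, and again nothing is read from these counts. The members kept their direction, with differences of −4.04 for Gadd45g, −2.94 for Gadd45a, −2.69 for Gadd45b and Cdkn1a, −0.66 for Mdm2, −0.70 for Plk3, −0.23 for Ccng1 and 1.02 for Sesn1. Relative to all genes, the difference of Gadd45g was −4.16 before and −4.13 after this normalization, and that of Sesn1 was 0.89 and 0.94.

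CES replicate 2 was the highest CES rat for Gadd45a, Gadd45g, Cdkn1a and Plk3, and it exceeded the mean of the other 3 by 2.63, 3.50, 1.40 and 1.04 on the log2 scale. For Gadd45b, Mdm2 and Ccng1 it differed from that mean by 0.23, −0.09 and −0.05. It remained 1.79 below the COS mean for Gadd45g and 1.31 below it for Gadd45a. Without this rat the difference was −5.29 for Gadd45g, −3.95 for Gadd45a, −3.35 for Cdkn1a and −3.08 for Gadd45b. The median level of the members above the median of all genes was 3.73 to 4.05 in COS and 0.95 to 2.12 in CES, with CES replicate 2 at the top of CES.

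Profiles over the 8 rats were compared by the mean absolute distance between log2 levels centred on the mean of each gene, over 13142 other genes well above background in all rats. This is a description, and the group difference and the dye are shared by all points. Within the group of members, Gadd45a was nearest to Cdkn1a, at a distance of 0.39, and Mdm2 was nearest to Plk3, at 0.26. The 2 genes most like Gadd45g were a transcript without a symbol, at 0.23, and Fos, an immediate-early gene, at 0.28. Fos went from 5.16 ± 0.65 (SD, n = 4) in the oil-injected rats to 0.90 ± 1.89 (SD, n = 4) in the estradiol-replaced rats. Crh, corticotropin-releasing hormone, was nearest to Cdkn1a, at 0.21, and was among the 2 nearest to Gadd45b, at 0.43, where the nearest was LOC500300, at 0.39. Aloxe3, an epidermal lipoxygenase-family gene, was next for Cdkn1a, at 0.24, and both genes most like Gadd45a, at 0.11 and 0.14, were transcripts without a symbol. Nsun4 and RGD1305007 were most like Mdm2, Hist1h2af and Spag5 most like Ccng1, a transcript without a symbol and Epha5 most like Sesn1, and Mad2l1bp and Furin most like Plk3, all at distances of 0.05 to 0.13.

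**Figure D3:**
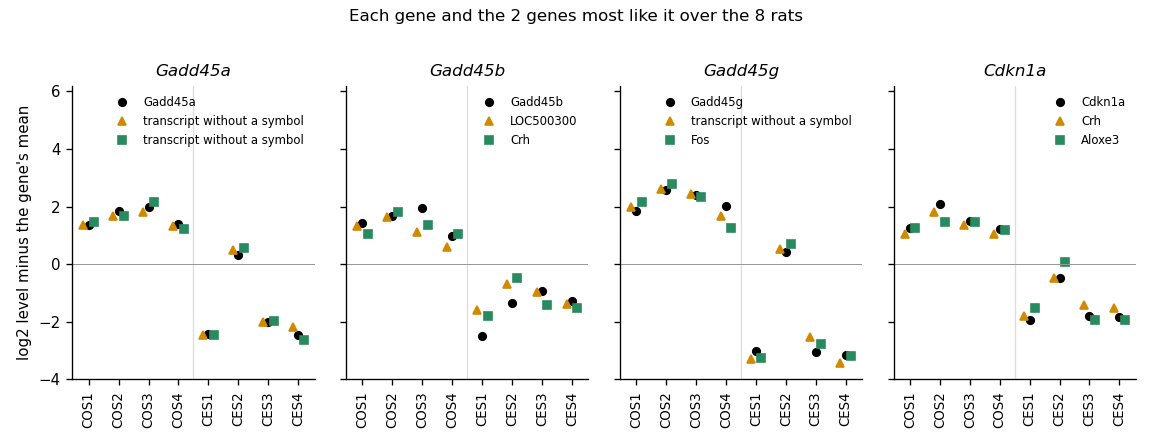
Log2 level minus the mean of the gene in each of the 8 rats for Gadd45a, Gadd45b, Gadd45g and Cdkn1a (black circles) and the 2 other genes most like each (orange triangles and green squares). The profiles of Gadd45a and Gadd45g share a CES replicate 2 just above 0 while the other CES rats lie near −2 and −3.

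Other genes of the pathway, listed from general knowledge of the pathway without the 9 members, were mostly lower in CES. The lists were drawn up with earlier results of these data known, so their counts are a description and no independent evidence of a direction. Of 26 quantified genes among 42 listed p53 regulators and targets, limma called 15 (57.7%) lower and none higher, against 28.6% of all genes lower and 5.74% higher. None was higher at an unadjusted p under 0.05 either, where 19 were lower. Of all 20787 genes, 9400 were under that threshold in either direction. The median difference of the 26 was −0.59, against −0.25 for all genes. That −0.25 is not subtracted from the differences of single listed genes below, so part of each fall is the shift of all genes. After loess and Aquantile normalization 4 of the 26 were called lower, against the same 8.77% of all genes, and these were Btg2, Phlda3, Fas and Bax.

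Among regulators of p53, 3 of 7 quantified genes (42.9%) fell and none rose, against 28.6% and 5.74% of all genes. The checkpoint kinase gene Chek1 fell by 1.08 (limma adjusted p = 0.028) and Cdkn2a, whose Arf product blocks Mdm2, fell by 0.88 (limma adjusted p = 0.013), but both were well above background in only 2 of 4 CES rats. Mdm4, the partner of Mdm2, fell by 0.56 (limma adjusted p = 0.031), with a signal clearly over background in 3 of 4 COS and in 2 of 4 CES rats. The groups of all 3 overlapped.

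Among p53 targets of the cell cycle, repair and metabolism, 4 of 10 quantified genes (40%) fell and none rose, against 28.6% and 5.74% of all genes. Btg2, an antiproliferative gene that activity also induces, had the largest fall, −2.38 with a standard error of 0.34 (limma adjusted p = 0.0033), and its groups did not overlap. Phlda3, an inhibitor of Akt at the membrane, fell by 1.69 (limma adjusted p = 0.0031), and Pcna, the sliding clamp of DNA replication, fell by 1.24 (limma adjusted p = 0.0090). The metabolic target Gls2 had a difference of 0.08 with a standard error of 0.18.

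Among p53 targets of cell death, 8 of 9 quantified genes (88.9%) fell and none rose, against 28.6% and 5.74% of all genes. The death receptor gene Fas fell by 1.69 (limma adjusted p = 0.0041), although only 2 of 4 CES rats showed it well above background. Perp, a membrane effector of apoptosis, fell by 1.09 (limma adjusted p = 0.012), with 3 rats of each group well above background. Bax, which permeabilizes the outer mitochondrial membrane, fell by 1.01 with a standard error of 0.17 (limma adjusted p = 0.0042), from 2.76 ± 0.33 (SD, n = 4) to 1.75 ± 0.18 (SD, n = 4). Bid, Bbc3, Siva1, Pidd1 and Triap1 were the others, and Apaf1, the scaffold of the apoptosome, was not called.

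Among 8 quantified partners of Gadd45 and Cdkn1a proteins, 6 (75%) fell and none rose, against 28.6% and 5.74% of all genes. The number lower at an unadjusted p under 0.05 was also 6, where 9400 of all 20787 genes were under that threshold in either direction. The kinase gene Cdk1 fell by 1.98 with a standard error of 0.61 (limma adjusted p = 0.032), its cyclin gene Ccnb1 by 1.36 (limma adjusted p = 0.024) and Cdk2 by 1.29 (limma adjusted p = 0.0045). The groups of all 3 overlapped, and for Cdk1 and Ccnb1 CES replicate 2 again was the highest CES rat. Ccnb1 was well above background in 3 of 4 CES rats. Of 3 quantified synaptic substrates of Plk2, Sipa1l1, Rapgef2 and Rasgrf1, limma called none in either direction, also at an unadjusted p under 0.05, and their differences were 0.15, 0.29 and 0.36.

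Among 8 relatives of the members, 3 (37.5%) fell and none rose, against 28.6% and 5.74% of all genes. At an unadjusted p under 0.05, 1 was higher and 3 were lower, beside 9400 of all 20787 genes in either direction. Sesn2, listed on the array as RGD1566319, fell by 1.37 with a standard error of 0.25 (limma adjusted p = 0.0050) without overlap, and Sesn3 fell by 0.71 (limma adjusted p = 0.011), whereas Sesn1 was higher. Both were well above background in 2 of 4 CES rats. Cdkn1c, the p57 relative of Cdkn1a, fell by 1.05 (limma adjusted p = 0.020). Partners, substrates and relatives together had 9 of 19 (47.4%) called lower, against 28.6% of all genes. After loess and Aquantile normalization 2 of the 19 were called lower, Cdk2 and Sesn2, and 2 higher. Of all genes, 8.77% were then called lower and 15.2% higher, so little is read from these counts.

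**Figure D4:**
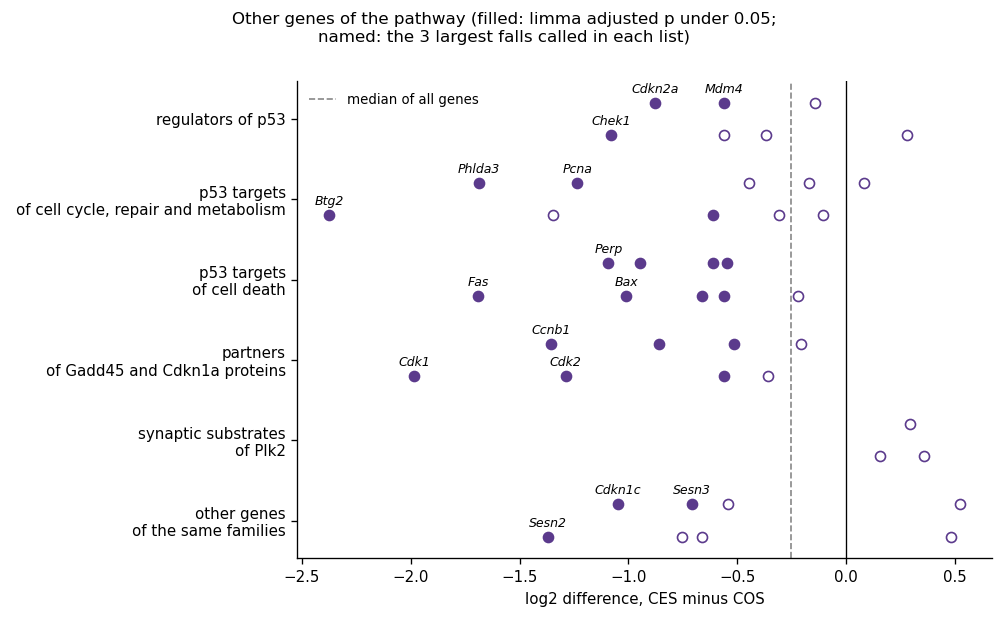
Log2 difference, CES minus COS, of 26 quantified p53 regulators and targets and of 19 partners and relatives of the members, filled where the limma adjusted p was under 0.05, with the 3 largest falls of each list named. The dashed line is the median of all genes at −0.25. All filled points lie to the left of it, and no gene of the 3 substrates of Plk2 is filled.

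Markers of other cell types also differed between the groups, in short lists whose counts are to be set beside the 28.6% of all genes called lower and the 5.74% called higher. Of 5 microglial markers 3 fell, and the log2 of their summed level was 4.91 to 5.53 in COS and 4.05 to 4.60 in CES. Sums add linear levels, so the brightest marker of a list weighs most. All 4 quantified immediate-early genes fell, Fos, Junb, Egr1 and Arc, with a summed level of 6.49 to 7.73 in COS and 5.18 to 6.45 in CES, and CES replicate 2 was the highest CES rat. Of 4 markers of CA3 and CA1 pyramidal neurons 3 rose, with sums of 3.36 to 3.96 in COS and 3.63 to 4.66 in CES. Of these 3, Fibcd1 was well above background in 0 of 4 COS and 2 of 4 CES rats. Of 3 endothelial markers 2 fell, with sums of 4.01 to 4.39 and 3.57 to 4.08. Both, Flt1 and Tek, were well above background in only 2 of 4 CES rats. The endothelial sums are mostly Cldn5, on average 4.08 in COS and 3.83 in CES, which limma did not call. Of 2 quantified genes of dividing cells 1 fell, with sums of 0.66 to 3.69 and −1.54 to 1.30. This was Ccna2, well above background in 2 of 4 CES rats. Of 6 astrocyte markers 1 fell and 2 rose, with sums of 7.47 to 7.60 and 7.23 to 7.85. Sums for choroid plexus ran from 3.67 to 9.24 in COS and from 3.91 to 7.57 in CES, and limma called neither these markers nor those of oligodendrocytes, whose sums were 7.78 to 8.64 and 8.22 to 8.81. Granule neuron markers summed to 7.74 to 8.21 in COS and 7.92 to 8.30 in CES, with 2 of 5, Dsp and C1ql2, lower. This sum is mostly Snap25, at 7.57 to 8.09 in COS and 7.82 to 8.22 in CES. C1ql2 fell by 1.23 and Dsp by 1.24, and both add little to the sum. Dsp was well above background in 3 of 4 COS and 2 of 4 CES rats. Prox1, the defining factor of granule neurons, had no spot that was both valid in all rats and free of outlier marks. The part of these shifts in the differences of the members was not tested.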

How the data were processed

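Each of 4 two-colour arrays (Agilent, rat) held 2 rats of 1 group. The authors deposited scanner files in which every spot has its foreground and local background intensity, which Agilent Feature Extraction 10.7.3.1 (the submitters' processing notes) wrote before any normalization. A set of deposited log2 values, used as an alternative, holds signals from the same scans relative to the median of the spots listed there, another reference than the valid spots used here. Labels, files and the study's methods set groups and dyes.

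Following the methods, a spot was valid where its foreground was at least 2 times its background. The background-subtracted signal was divided by the median of valid same-label spots in the array. Spots valid in all 8 rats and free of outlier marks were then averaged for each gene on the linear scale. The log2 was taken of that average, so a brighter probe of a gene weighs more. This used 26294 spots and 20787 genes, and the median standard error of a difference was 0.20. The authors' iterative renormalization needs the rats without SE and was not repeated. No spot was saturated. Probes were named by the gene name in the files, with rn4 positions.

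CES and COS were compared by limma 3.58.1 in R 4.3.3 with dye as a term and array as a random block (duplicateCorrelation, statmod 1.5.0, correlation −0.01), two-sided, at a Benjamini-Hochberg adjusted p of 0.05 across all genes tested. Named are the 9 members, the 3 largest called falls and rises of each list, and the 2 genes most like each member. The members and lists were chosen with earlier results of these data known. 1 listed gene is not reported here. A total of 24 alternatives covered normexp (offset 50), the processed signal, loess with Aquantile, quantile normalization, other filters and scalings, the brightest probe, RefSeq names, the deposited log2 values, other blocks, the methods' t-test and leaving out each rat. Keeping outlier-marked spots was chosen after seeing the data. Python 3.11.15 with pandas 2.3.3, numpy 2.4.6 and matplotlib 3.10.9 and the R package for tables data.table (version 1.17.8) were also used.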

Additional observations from a re-analysis of the deposited data

Results flagged for a closer look

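In 4 of 46 groups of 4 rats examined, 1 rat was set apart from the other 3 by a gap that filled most of the range of the group. For independent groups of normal values, chance gives about 1 in 20. These groups are the same 8 rats over different genes, so the 4 cannot be set against that rate. CES replicate 2 stood above the other CES rats for Gadd45a, at a log2 level of 3.92 against 1.14 to 1.58, with a gap of 0.843 of the range. For Gadd45g it was at 5.45 against 1.86 to 2.01, with a gap of 0.958 of the range. For Cdkn1a it was at 3.12 against 1.66 to 1.77, with a gap of 0.927 of the range. COS replicate 3 stood above the other COS rats for Sesn1, at 1.69 against 1.01 to 1.13, with a gap of 0.830 of the range.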

How the results depend on the processing

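Of the 8 quantified members, none changed direction in any of the 24 settings. The methods' t-test was adjusted here by Benjamini-Hochberg across all genes, which the methods do not describe. Gadd45a, Gadd45b, Gadd45g and Cdkn1a lost their call only by this adjusted t-test. Mdm2 lost it there and after normexp, Plk3 was called in 12 settings, Sesn1 in 13 and Ccng1 in 1, without COS replicate 2. The cause of these changes was not tested. Over the named genes, members included, 405 results in other settings kept direction and side of the threshold, 135 lost the call and 1 gained it.

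Normexp called 483 genes lower and 135 higher in CES, no member higher, 2 other p53 genes lower and 0 partners and relatives lower. Loess with Aquantile called 1824 lower and 3160 higher, with 4 other p53 genes lower and 2 partners and relatives lower and 2 higher, and quantile normalization called 2249 and 3018, with 4, 2 and 2. When each channel was scaled by its spots valid in every rat, 1778 and 3380 were called, with 4, 2 and 4, and from the deposited log2 values 1923 and 3210, with 4, 2 and 4. No filter on valid spots called 2798 and 403 of 34501 genes, with 0 members higher, 4 of 31 other p53 genes and 2 of 21 partners and relatives lower. A foreground of at least 3 times background called 2805 of 16224 genes lower, with 5 of 18 and 4 of 17. The requirement to be well above background called 5228 of 13142 genes lower. Of the 14 other p53 genes it kept, it called 9 lower, against 15 of 26 in the main fit. The processed signal called 0 members and 1 relative or partner higher. With Benjamini-Hochberg adjustment across all genes, the methods' t-test called 0 genes in either direction, and so 0 members, other p53 genes, partners and relatives. At an unadjusted p under 0.05 it gave 5900 genes. The methods instead use that threshold with a correction for redundant spots and a fold-change cut-off for each gene. The 0 is therefore not what the study's own rule would call. With outlier-marked spots kept, which adds Plk2, the median difference of the members relative to all genes was −0.82 instead of −1.80.

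Leaving out 1 rat gave 1141 to 6940 genes lower and 285 to 1805 higher, 5 to 6 members lower and 0 to 1 higher, 4 to 18 other p53 genes lower and 0 higher, and 2 to 11 partners and relatives lower and 0 to 1 higher. The median member difference relative to all genes stayed between −1.97 and −1.59. The count of lower genes was 3627 without COS replicate 1, 3948 without COS replicate 2, 1141 without COS replicate 3 and 2547 without CES replicate 1. The count of higher genes was 497, 285, 521 and 535 without COS replicates 1, 3 and 4 and CES replicate 1, and 1805 without CES replicate 2. The member Sesn1 was called higher only when CES replicate 2 was the rat left out.

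Rats with the same number share a dye. Their deviations from the group means correlated at 0.21 to 0.35, and at −0.06 to −0.04 once the dye means were removed, so the numbers were not taken as a pairing. With the number as a replicate block, 6503 genes were lower and 1197 higher, with 6 members lower, 1 higher, 16 other p53 genes and 9 partners and relatives lower. With 4 rats a group and 2 rats of 1 group on each array, differences between arrays and between groups cannot be told apart beyond the random block.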
